A study of Mus musculus with 6 samples.

Results

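The antioxidant and thiol redox enzymes of interscapular brown adipose tissue were followed here as 34 genes, named by their symbols in the GENCODE M21 annotation. The rule uses no measured value, but the list was drawn up with earlier results of these data known. They comprise 4 genes for superoxide dismutases and catalase, 5 for glutathione peroxidases, 7 for peroxiredoxins with sulfiredoxin, 6 of the thioredoxin system, 8 for glutathione synthesis, glutathione reduction and glutaredoxins, and 4 for the regulators NRF2 and KEAP1 with the oxidoreductases Nqo1 and Hmox1. They are 34 of 21730 genes with at least 1 read, and 32 of them were among the 8684 genes with enough reads to be tested. Gpx7 and Nqo1 were not tested, because Gpx7 had 26 reads over the cold and 25 over the ctrl libraries, and Nqo1 10 and 17.

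The study sequenced poly(A) RNA of this fat depot as full-length cDNA on Oxford Nanopore flow cells, without amplification. The cold group holds 3 C57BL/6N wild-type males aged 20 weeks, which per the labels spent their last 24 h alone in a cage at 4 °C. The ctrl group holds 3 mice of the same strain, kept at 22 to 24 °C in the labels' general housing text. The labels repeat the cold treatment text, with the sex and the age of 20 weeks, on ctrl samples too, and only their treatment field sets them apart as ctrl. Whether ctrl mice were also caged alone is not given, so cold and single caging cannot be told apart. The tissue fields of all samples name this depot, while the extraction text speaks of eWAT, another fat depot; the tissue fields were followed. Each library is 1 mouse, by its mouse number, and the libraries held 1657985 to 2238056 reads. Values per gene are CPM, the reads of a gene per 1e+06 reads of its library after TMM scaling. A count of 0 still allows 3 reads, which correspond to 1.34 to 1.81 per 1e+06 reads before that scaling. These limits cover counting error only. Values per mouse are listed for cold mice 4, 11 and 15 and for ctrl mice 2, 9 and 14, in that order. The brown fat markers fixed for the tissue were all detected, with Ucp1 at 13665 to 13889 CPM in cold mice and 9700 to 11228 CPM in ctrl mice.

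Respiring mitochondria leak electrons onto oxygen and form superoxide, which superoxide dismutases turn into hydrogen peroxide. Catalase, glutathione peroxidases and peroxiredoxins remove the peroxide. Glutathione and thioredoxin give the electrons for this, and glutathione reductase and thioredoxin reductases restore them with NADPH. The transcription factor NRF2 drives many of these genes once its inhibitor KEAP1 releases it. In brown adipocytes, redox changes of protein thiols accompany heat production by UCP1.

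Several of these enzymes carry selenocysteine, which the ribosome inserts at a UGA codon that otherwise ends translation. The annotation marks such a codon in 5 tested members, and the 30 bases around it are shown because these 5 genes hold 4 of the 7 lower calls described below. They are read from the GRCm38 transcripts, 5′ to 3′, with the codon in capitals.
Gpx1: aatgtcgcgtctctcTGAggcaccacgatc
Gpx3: aacgtagccagctacTGAggtctgacagac
Gpx4: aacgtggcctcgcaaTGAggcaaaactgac
Txnrd1: ctccagtctggctgcTGAggttaagcccca
Txnrd2: actgtgactggttgcTGAggctaagtcacc
The codons lie at chr9:108339451-108339453 in Gpx1, chr11:54907256-54907258 in Gpx3, chr10:80054737-80054739 in Gpx4, chr10:82896037-82896039 in Txnrd1 and chr16:18477772-18477774 in Txnrd2, all on the plus strand. It is codon 47 of Gpx1 and codon 73 of both Gpx3 and Gpx4, counted from the start codon. In both reductases it comes late, at codon 612 in transcript Txnrd1-205, which held 32.1% of the Txnrd1 reads, and at codon 526 in Txnrd2-203, with 53.1% of the Txnrd2 reads, and the codon after the next is the TAA stop.

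After 24 h in the cold the redox genes did not move in one direction. Prdx6, Srxn1, Glrx, Txnrd1, Txn2 and Sod3 rose, and Gpx4, Gpx1, Gpx3, Txnrd2, Gclm, Txn1 and Prdx2 fell, at an adjusted p under 0.05 in edgeR's quasi-likelihood test fitted on all genes. That is 6 members higher and 7 lower of 32 tested, or 40.6%, where 19.5% of all tested genes were called in either direction, 9.75% higher and 9.77% lower. The median log2 fold change of the tested members was -0.034, and that of all tested genes 0.0009. The median size of the change, without its sign, was 0.33 for the members and 0.26 for all tested genes. Cold and ctrl values did not overlap for 20 of the 32 tested members, against 35.1% of all tested genes. In RNA from whole tissue, fewer cells of a type and less RNA per cell cannot be told apart.

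**Figure D1:**
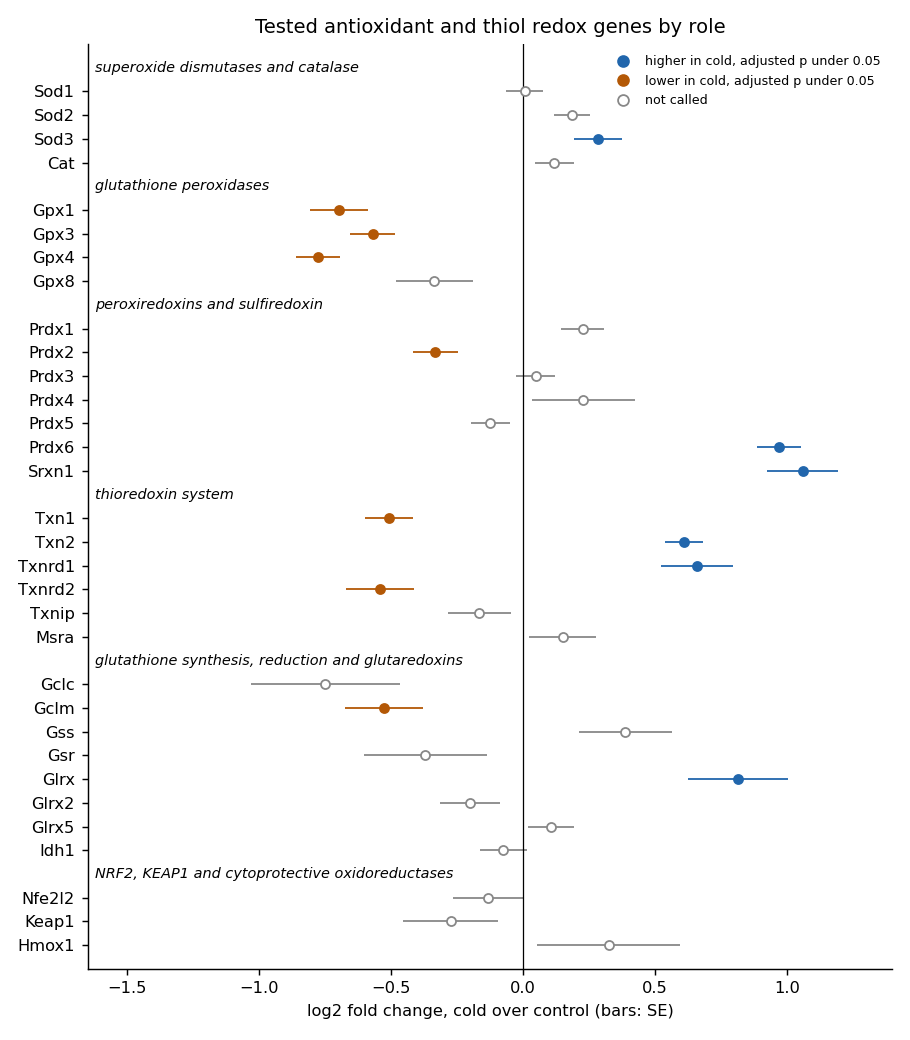
Log2 fold change, cold over control, for each tested member (horizontal axis), with members grouped by role down the page. Points are edgeR estimates from 3 cold and 3 control mice and bars are their SE, blue for members higher in cold, brown for members lower and open grey for those not called; all 4 tested glutathione peroxidases lie left of 0, while Srxn1 (1.06) and Prdx6 (0.97) lie farthest to the right.

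The superoxide dismutases and catalase moved little: 1 of 4 rose and none fell, with a median log2 fold change of 0.15. Sod3, the secreted dismutase, had 211, 212 and 188 CPM in the cold mice and 175, 155 and 173 CPM in the ctrl mice. The groups did not overlap, and the log2 fold change was 0.29 ± 0.090 (SE, adjusted p = 0.0291). This call was lost without cold mouse 4 (adjusted p = 0.113), without cold mouse 11 (0.0968), without ctrl mouse 9 (0.137) or without ctrl mouse 14 (0.0644). Sod2, the manganese enzyme of the mitochondrial matrix, had 1348, 1303 and 1265 CPM in cold mice and 1197, 1075 and 1175 CPM in ctrl mice. These values did not overlap either, but the log2 fold change of 0.18 ± 0.067 was not called (adjusted p = 0.0589), although it was called without cold mouse 15 (adjusted p = 0.0444). Sod1, the copper and zinc enzyme of the cytosol, averaged 1116 ± 76.5 CPM in cold mice and 1112 ± 42.2 CPM in ctrl mice (SD, n = 3 each), with a log2 fold change of 0.0064 ± 0.070. Catalase, the hydrogen peroxide enzyme of peroxisomes, averaged 486 ± 22.2 CPM in cold mice and 448 ± 10.2 CPM in ctrl mice, and its log2 fold change of 0.12 ± 0.073 was not called (adjusted p = 0.29).

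Among the glutathione peroxidases 3 of 4 tested members fell and none rose, with a median log2 fold change of -0.63. Gpx4 reduces lipid hydroperoxides within membranes and protects cells from ferroptosis. It had 727, 735 and 570 CPM in cold mice and 1130, 1204 and 1148 CPM in ctrl mice. Every cold mouse was below every ctrl mouse, and the level was 1.71-fold lower in the cold (log2 fold change -0.78 ± 0.085, adjusted p = 1.55e-06). Gpx1, which removes hydrogen peroxide in cytosol and mitochondria, had 259, 247 and 178 CPM in cold mice and 371, 373 and 368 CPM in ctrl mice. The ctrl mice were close together, cold mouse 15 was the lowest, and the log2 fold change was -0.70 ± 0.11 (adjusted p = 0.000278). Gpx3, the secreted peroxidase of plasma, had 652, 642 and 571 CPM in cold mice and 1003, 797 and 968 CPM in ctrl mice. It was 1.48-fold lower in the cold without overlap (log2 fold change -0.57 ± 0.085, adjusted p = 5.57e-05). Gpx8, a peroxidase of the endoplasmic reticulum without selenocysteine, had 68.6, 86.7 and 71.0 CPM in cold mice and 108, 72.0 and 106 CPM in ctrl mice. The groups overlapped through ctrl mouse 9, and the log2 fold change of -0.34 ± 0.15 was not called (adjusted p = 0.13) except without that mouse (-0.51, adjusted p = 0.00487). Gpx7, of the same compartment, averaged 4.41 CPM in cold mice and 4.41 CPM in ctrl mice and was not tested.

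The counts of Gpx4 have a limit of their own, because a processed pseudogene shares its sequence. Gpx4-ps2 (chr10:45875291-45876086) matched the Gpx4 transcript over 762 bases at 99.7% identity and was given 11694 reads, while Gpx4 itself had 10732. Gpx4-ps2 averaged 701 ± 141 CPM in cold mice and 1304 ± 60 CPM in ctrl mice (SD, n = 3 each), a log2 fold change of -0.89 (adjusted p = 0.00336). With the reads of both summed, the log2 fold change of Gpx4 was -0.84 (adjusted p = 0.0002). The split of reads between both loci is therefore uncertain, and the direction was the same for each locus and for their sum.

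Of the peroxiredoxins and sulfiredoxin 2 of 7 rose and 1 fell. Prdx6, a peroxiredoxin that reduces phospholipid hydroperoxides and draws on glutathione, had 520, 469 and 516 CPM in cold mice and 254, 233 and 281 CPM in ctrl mice. It was 1.96-fold higher in the cold, with a log2 fold change of 0.97 ± 0.084 (adjusted p = 2.56e-08). Srxn1 encodes sulfiredoxin, which reactivates typical peroxiredoxins after their cysteine has been oxidised too far. It had 61.4, 69.1 and 67.5 CPM in cold mice and 27.8, 31.1 and 35.4 CPM in ctrl mice, a 2.08-fold higher level (log2 fold change 1.06 ± 0.13, adjusted p = 5.34e-06). For both genes the lowest cold mouse stood well above the highest ctrl mouse.

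Prdx2, a cytosolic peroxiredoxin that is abundant in red cells, had 186, 169 and 186 CPM in cold mice and 230, 232 and 220 CPM in ctrl mice. The groups did not overlap, and the log2 fold change was -0.33 ± 0.085 (adjusted p = 0.00748). The summed level of 6 red cell markers lay from 1910 to 2843 CPM in cold mice and from 1574 to 2915 CPM in ctrl mice, with none of 5 tested markers called and Slc4a1 at 0, and its part in the Prdx2 result was not tested. On the opposite strand Prdx2 shares 154 exon bases with Rnaseh2a, which had 53 reads and fell (log2 fold change -1.73, adjusted p = 0.0104), and 173 with Junb, which had 140 reads and was not called (0.34, adjusted p = 0.812), while Prdx2 had 2366 reads. With the level of muscle genes in the fit, the Prdx2 call was lost (log2 fold change -0.31, adjusted p = 0.0709).

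The other peroxiredoxins were not called. Prdx1, of the cytosol, had 1006, 1015 and 928 CPM in cold mice and 724, 882 and 914 CPM in ctrl mice, and the cold mice were just above the ctrl mice without overlap (log2 fold change 0.23 ± 0.081, adjusted p = 0.0554). It was called without ctrl mouse 14 (adjusted p = 0.0454) and without cold mouse 15 (0.0355). Prdx3, the peroxiredoxin of mitochondria, averaged 451 ± 18.4 CPM in cold mice and 436 ± 14.3 CPM in ctrl mice, a log2 fold change of 0.048 ± 0.074. Prdx4, of the endoplasmic reticulum, averaged 22.3 ± 3.33 CPM in cold mice and 19.0 ± 3.03 CPM in ctrl mice. Prdx5, found in several compartments, averaged 502 ± 26.0 CPM in cold mice and 547 ± 19.0 CPM in ctrl mice, with a log2 fold change of -0.12 ± 0.073 (adjusted p = 0.267).

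The thioredoxin system changed in opposite directions in both compartments. Txn2, the mitochondrial thioredoxin, had 573, 565 and 607 CPM in cold mice and 378, 377 and 388 CPM in ctrl mice. It was 1.53-fold higher in the cold (log2 fold change 0.61 ± 0.072, adjusted p = 2.3e-06), and each group was tight. Txnrd2, the reductase that serves Txn2, had 58.0, 49.6 and 42.5 CPM in cold mice and 68.9, 81.7 and 69.3 CPM in ctrl mice. It was lower in every cold mouse, with a log2 fold change of -0.54 ± 0.13 (adjusted p = 0.00438). In the cytosol the order was the other way round. Txn1, the cytosolic thioredoxin, had 123, 130 and 130 CPM in cold mice and 194, 180 and 171 CPM in ctrl mice, and fell without overlap (log2 fold change -0.51 ± 0.091, adjusted p = 0.000319). Its reductase Txnrd1 had 73.4, 53.6 and 70.5 CPM in cold mice and 38.8, 42.9 and 42.8 CPM in ctrl mice, and rose (log2 fold change 0.66 ± 0.14, adjusted p = 0.0013). So 2 of the 6 members of this system rose and 2 fell, with a median log2 fold change of -0.0075.

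The remaining members of the system were not called. Txnip, which binds thioredoxin and blocks it, averaged 222 ± 29.8 CPM in cold mice and 250 ± 40.7 CPM in ctrl mice with overlap (adjusted p = 0.389). Msra, which returns oxidised methionine to its reduced form with the help of thioredoxin, averaged 58.0 ± 7.14 CPM in cold mice and 52.3 ± 2.30 CPM in ctrl mice (adjusted p = 0.456). The Txnrd2 call was lost with the level of muscle genes in the fit (log2 fold change -0.44, adjusted p = 0.0738).

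**Figure D2:**
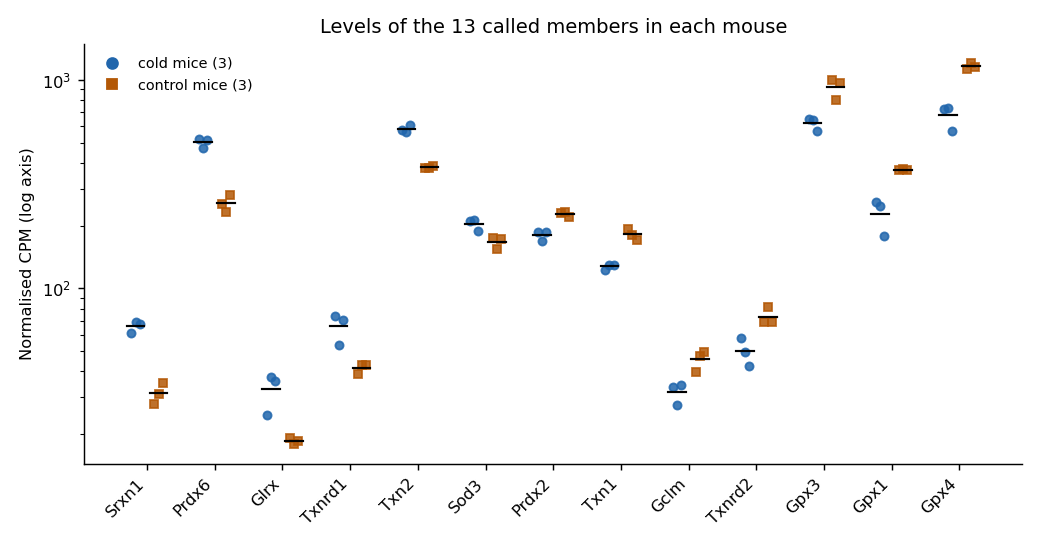
Normalised CPM on a log axis for the 13 called members, ordered by log2 fold change, with 1 point per mouse (blue circles, 3 cold mice; brown squares, 3 control mice) and the group mean as a black line. No cold point lies within the control range of its gene; the ctrl values of Gpx1 run from 368 to 373 CPM, while its cold values run from 178 to 259 CPM.

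In glutathione synthesis, reduction and glutaredoxins 1 of 8 members rose and 1 fell. Glrx, the cytosolic glutaredoxin that removes glutathione from protein thiols, had 24.6, 37.6 and 36.1 CPM in cold mice and 19.1, 17.9 and 18.6 CPM in ctrl mice. The ctrl mice were tight and the cold mice spread, with cold mouse 4 the lowest, and the log2 fold change was 0.81 ± 0.19 (adjusted p = 0.00348). With the level of muscle genes in the fit it was 0.60 and not called (adjusted p = 0.0893). Gclm, the modifier subunit of glutamate-cysteine ligase, had 33.8, 27.6 and 34.4 CPM in cold mice and 39.9, 47.5 and 49.8 CPM in ctrl mice, and fell (log2 fold change -0.53 ± 0.15, adjusted p = 0.0136). That call was lost without cold mouse 11 (adjusted p = 0.083) or ctrl mouse 14 (0.0715). Gclm also shares 296 exon bases with Gm17494, a transcript of the opposite strand with 15578 reads and a log2 fold change of -0.038 (adjusted p = 0.748), while Gclm had 453 reads. Reads in such a shared stretch cannot be told apart if strand was not used in counting.

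Gclc, the catalytic subunit of the same ligase, was thinly covered, with 43 reads over the cold mice and 73 over the ctrl mice. Its values were 6.76, 8.02 and 7.57 CPM in cold mice and 17.4, 11.2 and 9.77 CPM in ctrl mice, which did not overlap, and the log2 fold change of -0.75 ± 0.28 was not called (adjusted p = 0.0672). Without ctrl mouse 14 it was -0.93 and called (adjusted p = 0.0448). Gss, glutathione synthetase, averaged 30.2 ± 3.53 CPM in cold mice and 23.4 ± 3.89 CPM in ctrl mice (log2 fold change 0.39 ± 0.18, adjusted p = 0.133). Gsr, glutathione reductase, averaged 15.3 ± 1.83 CPM in cold mice and 20.0 ± 6.28 CPM in ctrl mice (adjusted p = 0.303). Cold and ctrl values overlapped for both of these enzymes.

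The mitochondrial glutaredoxins were not called. Glrx2 averaged 63.8 ± 4.86 CPM in cold mice and 73.8 ± 4.89 CPM in ctrl mice (adjusted p = 0.242). Glrx5, which hands on iron-sulfur clusters, averaged 187 ± 8.67 CPM in cold mice and 174 ± 6.67 CPM in ctrl mice (adjusted p = 0.44). Idh1, the cytosolic isocitrate dehydrogenase that makes NADPH, had 244, 236 and 200 CPM in cold mice and 224, 243 and 250 CPM in ctrl mice, overlapping values with a log2 fold change of -0.074 ± 0.090.

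Neither NRF2 nor its inhibitor was called at the RNA level, and 0 of the 3 tested members of this group were, also at an unadjusted p under 0.05. DESeq2 called 0 of them too. Nfe2l2, which encodes NRF2, had 51.7, 41.6 and 42.5 CPM in cold mice and 47.4, 49.5 and 52.1 CPM in ctrl mice, with a log2 fold change of -0.13 ± 0.13 (adjusted p = 0.544). Keap1, the adaptor that sends NRF2 to degradation, averaged 23.2 ± 3.02 CPM in cold mice and 28.2 ± 4.44 CPM in ctrl mice (log2 fold change -0.27 ± 0.18, adjusted p = 0.326). Hmox1, the inducible heme oxygenase, had 10.6, 9.02 and 9.32 CPM in cold mice and 8.68, 7.65 and 6.98 CPM in ctrl mice. The cold values were higher without overlap, but they rest on 56 reads in the cold mice and 45 in the ctrl mice, and the log2 fold change of 0.32 ± 0.27 was not called (adjusted p = 0.456). Nqo1, a quinone reductase, had 10 reads over the cold mice and 17 over the ctrl mice. These reads were too few for the reported fit, so a difference in Nqo1 was not tested.

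Selenocysteine codons were looked at across the whole annotation, which marks 24 such genes, 19 of them tested. Of the 19, 3 rose, 6 fell and 10 were not called, where 9.75% of all tested genes rose and 9.77% fell. The members hold 5 of the 19, of which Gpx4, Gpx1, Gpx3 and Txnrd2 fell and Txnrd1 rose. Of the other 14, 2 rose and 2 fell. Msrb1, which reduces oxidised methionine, had 100, 113 and 89.1 CPM in cold mice and 68.3, 69.9 and 74.4 CPM in ctrl mice (log2 fold change 0.51 ± 0.11, adjusted p = 0.00218). Dio2, the deiodinase that activates thyroid hormone, had a log2 fold change of 2.32 ± 0.15 (adjusted p = 3.92e-09). Selenop, the secreted carrier of selenium, had 230, 240 and 222 CPM in cold mice and 275, 279 and 309 CPM in ctrl mice (log2 fold change -0.32 ± 0.083, adjusted p = 0.00864), a call lost without ctrl mouse 14 (adjusted p = 0.0694). Selenoh, named after its value was seen, had a log2 fold change of -1.43 ± 0.33 (adjusted p = 0.00345). Of the 27 tested members without the codon, 5 rose and 3 fell.

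**Figure D3:**
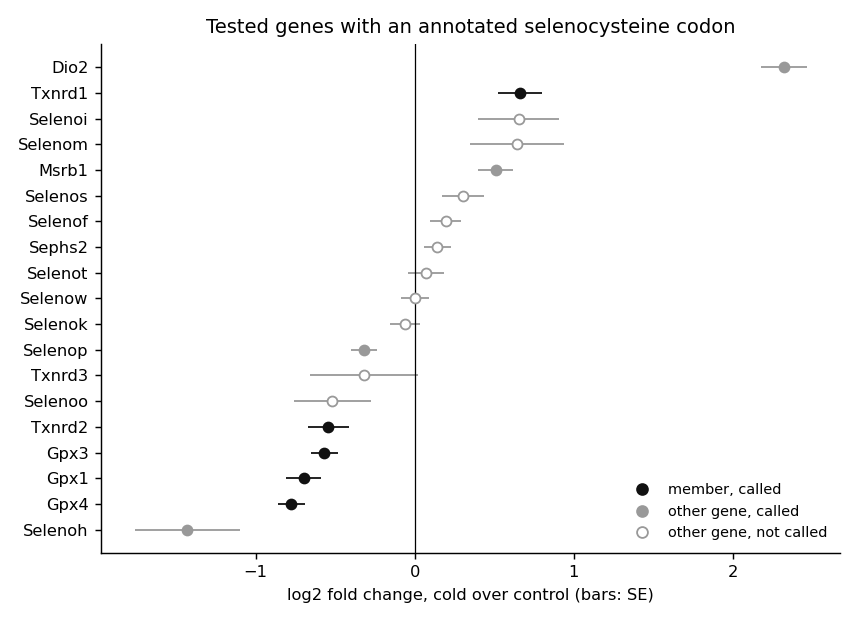
Log2 fold change, cold over control, with SE bars for the 19 tested genes whose annotation marks a selenocysteine codon, ordered from highest to lowest. Black points are the 5 members and grey points other genes, filled where called; values run from 2.32 for Dio2 to -1.43 for Selenoh, with Txnrd1 at 0.66 apart from the other 4 members, which lie between -0.78 and -0.54.

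The deposited counts also assign reads to single transcripts, though how reads that match several transcripts were treated is not given. Of 142 member transcripts with a read, 62 were among the 11699 transcripts tested. Of these 11 rose and 8 fell, where 16.3% of all tested transcripts were called in either direction, 8.33% higher and 7.96% lower. CPM per transcript were scaled on the transcript table, so they differ slightly from the CPM per gene.

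In each called gene other than Txnrd1, Txnrd2 and Gclm, the transcript with the most reads was called too. Prdx6-202 held 92.0% of the reads of Prdx6 and had 492, 444 and 492 CPM in cold mice and 235, 217 and 268 CPM in ctrl mice (log2 fold change 0.99 ± 0.088, adjusted p = 2.86e-09). Its minor transcripts Prdx6-207 and Prdx6-201 were called higher as well, on 2.39 to 11.4 CPM. The call of Prdx6-201 was lost without any single mouse (adjusted p = 0.0603 to 0.103), and that of Prdx6-207 without any but cold mouse 4 (0.0662 to 0.128). Txn2-201 held 91.6% of the reads of its gene (log2 fold change 0.59 ± 0.076, adjusted p = 1.83e-06), and Txn2-204 rose beside it (0.90 ± 0.22, adjusted p = 0.00438). Gpx4-202 held 93.9% of the Gpx4 reads and had 695, 713 and 555 CPM in cold mice and 1076, 1167 and 1118 CPM in ctrl mice (log2 fold change -0.78 ± 0.082, adjusted p = 1.26e-07). The minor transcript Gpx4-201, which starts at chr10:80054037 within the same gene, had 26.2, 27.2 and 18.6 CPM in cold mice and 53.7, 47.5 and 40.3 CPM in ctrl mice (log2 fold change -0.95 ± 0.17, adjusted p = 0.000179). Gpx4-204 was also called lower, on 7.18 to 26.3 CPM, a call lost without ctrl mouse 2 (adjusted p = 0.168), ctrl mouse 9 (0.0777), cold mouse 11 (0.19) or cold mouse 15 (0.084).

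Most Txnrd1 reads were given to 3 transcripts with different starts, in nearly equal shares. Where the reads themselves begin was not checked, so the use of each start is uncertain. Txnrd1-205 starts at chr10:82833951, Txnrd1-201 at chr10:82859179 and Txnrd1-206 at chr10:82860301, and they held 32.1%, 31.9% and 29.5% of the reads of the gene. Txnrd1-206 had 23.2, 20.0 and 21.6 CPM in cold mice and 12.5, 14.2 and 6.71 CPM in ctrl mice, and rose without overlap (log2 fold change 0.97 ± 0.24, adjusted p = 0.00509). That call was lost without ctrl mouse 14 (adjusted p = 0.0669). Txnrd1-201 had 22.7, 17.4 and 24.0 CPM in cold mice and 11.9, 14.2 and 15.3 CPM in ctrl mice, just short of a call (0.61 ± 0.21, adjusted p = 0.0519). Txnrd1-205 had 24.7, 13.3 and 22.2 CPM in cold mice and 13.7, 14.2 and 17.7 CPM in ctrl mice, which overlapped (0.38 ± 0.23, adjusted p = 0.295). The starts were not shown to differ in response, since the test of transcript shares for Txnrd1 gave an adjusted p of 1.00 by Simes' method and 0.88 by the F test of the gene.

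Called transcripts were also found for 2 genes that were not called as genes. Sod2-201 had 1195, 1145 and 1109 CPM in cold mice and 1005, 906 and 1009 CPM in ctrl mice (log2 fold change 0.24 ± 0.070, adjusted p = 0.0162), a call lost without cold mouse 4 (adjusted p = 0.109) or ctrl mouse 9 (0.123). The other Sod2 transcript, Sod2-207, is annotated without a coding frame and had 174, 181 and 187 CPM in cold mice and 215, 191 and 191 CPM in ctrl mice (-0.14 ± 0.092, adjusted p = 0.343). Gss-201 held 71.1% of the reads of Gss and averaged 24.1 ± 4.03 CPM in cold mice and 15.0 ± 3.45 CPM in ctrl mice (0.70 ± 0.21, adjusted p = 0.0226), and the call was lost without cold mouse 4 (adjusted p = 0.154), ctrl mouse 9 (0.139) or ctrl mouse 14 (0.073). Gss shares 392 exon bases with Acss2 on the opposite strand, which had 1552 reads and fell (log2 fold change -1.80, adjusted p = 7.09e-05).

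The remaining called transcripts were the main ones of their genes, except Txnrd2-206. Gpx1-201, Gpx3-201, Txn1-201, Srxn1-201 and Sod3-201 each held 98.7% or more of the reads of their gene and followed it. Sod3-201 lost its call without any single mouse other than cold mouse 15 (adjusted p = 0.0614 to 0.19). Glrx-204 rose (log2 fold change 0.96 ± 0.24, adjusted p = 0.00489) and Prdx2-203 fell (-0.36 ± 0.10, adjusted p = 0.0143), a call lost without ctrl mouse 9 (0.0635) or cold mouse 11 (0.0718). Txnrd2-206, a short form that ends before the selenocysteine codon, had 13.8, 9.23 and 11.4 CPM in cold mice and 16.7, 23.2 and 18.2 CPM in ctrl mice (-0.75 ± 0.23, adjusted p = 0.0252). Leaving out ctrl mouse 9 (adjusted p = 0.145), cold mouse 11 (0.131) or cold mouse 15 (0.0596) ended that call. The full-length Txnrd2-203 had a log2 fold change of -0.42 ± 0.18 and was not called (adjusted p = 0.106).

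Shares of transcripts within a gene were tested in 17 members with at least 2 tested transcripts, and 0 were called by edgeR's diffSpliceDGE with Simes' method, where 0.195% of 2568 genes were called. By the F test of the gene 0 members were called as well, where 0.701% of genes were. At an unadjusted p under 0.05 both methods named 2 members, Sod1 and Sod2. The coding transcript Sod2-201 made up 85.9 ± 0.85% of Sod2 reads in cold mice and 82.1 ± 1.08% in ctrl mice (SD, n = 3 each; lowest adjusted p = 0.171, by the F test). Sod1-201 made up 86.0 ± 1.11% of Sod1 reads in cold mice and 83.1 ± 0.74% in ctrl mice, and the rest were reads of Sod1-202, annotated as retaining an intron. Most Prdx5 reads were likewise given to a transcript annotated as retaining an intron, Prdx5-202, which made up 78.3 ± 0.26% in cold mice and 80.0 ± 1.31% in ctrl mice. Prdx5 overlaps Trmt112 on the opposite strand by 409 exon bases, and Trmt112 had 243 reads.

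**Figure D4:**
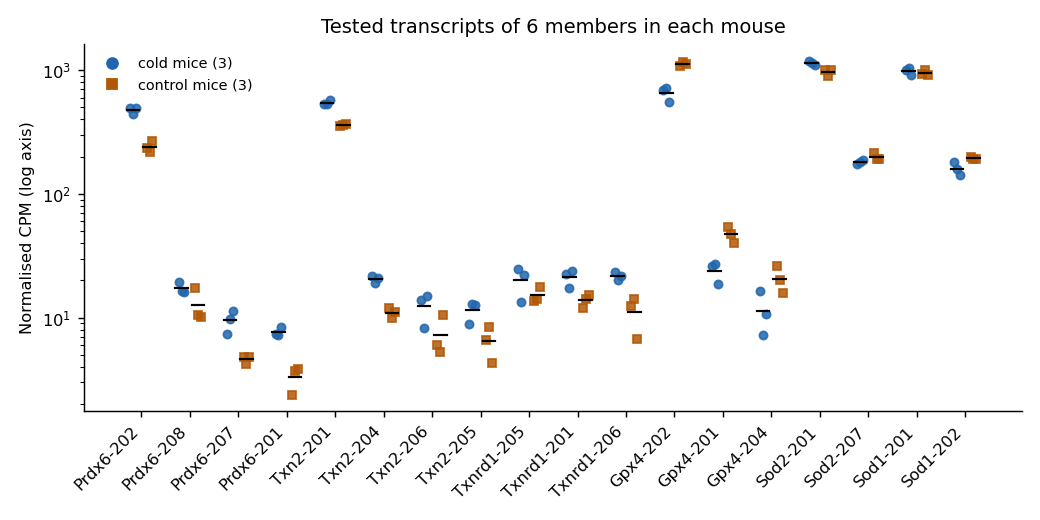
Normalised CPM on a log axis for each tested transcript of Prdx6, Txn2, Txnrd1, Gpx4, Sod2 and Sod1, with 1 point per mouse (blue circles, 3 cold mice; brown squares, 3 control mice) and group means as black lines. The cold and control points of Prdx6-202, Txn2-201 and Gpx4-202 are well apart, while those of Txnrd1-205 overlap.

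Promoter windows of 300 bases, 250 before the start site and 50 after it, were given by RefSeq (GRCm38.p6) for 28 members, as 38 windows. The core of the antioxidant response element bound by NRF2, TGACNNNGC on either strand, was found in 6 of the 38 windows (15.8%), against 12.4% of 32851 windows of all genes. The members with a match were Gclm, Nfe2l2, Prdx1, Sod1, Srxn1 and Txnrd1. No window was given for Gclc, Gsr, Hmox1, Msra, Prdx6 and Sod3, so these were not searched. A core with G in place of its first C was not searched for in any window. The Srxn1 window holds such a string, TGAGTCAGC, before its start site. A stricter form with A or G before the core was found in 5.26% of member windows, those of Prdx1 and Txnrd1, against 6.31% of all windows. The 3 called members with the core are shown because they were called in different directions; their sites differ at the free bases, and only that of Txnrd1 has the stricter form. They are printed with the core in capitals and 10 bases on each side, in the direction of the gene.
Srxn1: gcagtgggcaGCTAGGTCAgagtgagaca
Txnrd1: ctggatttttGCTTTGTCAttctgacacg
Gclm: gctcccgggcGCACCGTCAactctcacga
The stretches lie at chr2:152105542-152105570 for Srxn1, chr10:82859104-82859132 for Txnrd1 and chr3:122245413-122245441 for Gclm, all on the plus strand, and in each the match reads on the opposite strand of the gene. Counted from the RefSeq start sites, the match begins 92 bases before the start at chr10:82859206 in Txnrd1 and 134 bases before the start of Gclm, and in Srxn1 it lies at base 29 after the start. The other Txnrd1 windows, near the starts of Txnrd1-205 and Txnrd1-206, do not hold the core. The cAMP response element TGACGTCA was found in 0 member windows, and in 1.79% of all windows. A match is a string of letters and not evidence of binding. By window, the share with the NRF2 core was 15.8% for members, 12.4% for all genes and 14.6% for tested genes. By gene, 6 of 28 members had that core, where 14.0% of 27025 genes had it. These differences were not tested.

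Genes around the members were read from 6 lists of 101 genes, of which 78 were tested. Of these 7 rose and 15 fell (28.2% called, where 19.5% of all tested genes were), with a median log2 fold change of -0.075. Of a list of enzymes linked to NADPH supply, 6 of 11 tested fell and 1 rose, with a median of -0.42. Tkt and Taldo1 act in the pentose phosphate pathway but do not make NADPH themselves. G6pdx and Pgd, which make it there, were named after their values were seen and fell by less. Their log2 fold changes were -0.54 ± 0.10 (adjusted p = 0.000528) and -0.60 ± 0.15 (adjusted p = 0.0268). Tkt, transketolase, had 919, 827 and 657 CPM in cold mice and 2171, 2609 and 2431 CPM in ctrl mice (log2 fold change -1.58 ± 0.12, adjusted p = 4.6e-05). Taldo1, transaldolase of the same pentose phosphate pathway, had 740, 684 and 608 CPM in cold mice and 1429, 1569 and 1378 CPM in ctrl mice (-1.11 ± 0.078, adjusted p = 9.39e-10). Me1, the cytosolic malic enzyme, had 316, 286 and 193 CPM in cold mice and 627, 967 and 791 CPM in ctrl mice (-1.58 ± 0.27, adjusted p = 0.0222). The call of Me1 was lost without cold mouse 11 (adjusted p = 0.0813), ctrl mouse 9 (0.0538) or ctrl mouse 14 (0.0731). Mthfd1, of folate metabolism, was the one that rose, on 7.52 to 20.3 CPM (0.80 ± 0.23, adjusted p = 0.0175), and lost its call without ctrl mouse 2 (0.0828) or cold mouse 4 (0.0885).

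Among 17 other tested partners and targets of NRF2, 1 rose and 6 fell, with a median of -0.25. Ftl1, the ferritin light chain that stores iron, had 1092, 1025 and 1123 CPM in cold mice and 517, 499 and 536 CPM in ctrl mice (log2 fold change 1.06 ± 0.070, adjusted p = 3.23e-10). A near-identical copy, Ftl1-ps1, took 7863 reads beside 9258 of Ftl1, and the sum of both had a log2 fold change of 1.07. Blvrb, biliverdin reductase B, had 15.5, 17.5 and 16.9 CPM in cold mice and 36.5, 32.2 and 43.7 CPM in ctrl mice (-1.18 ± 0.18, adjusted p = 5.07e-05). Gsta4, a glutathione transferase for lipid aldehydes, fell by 0.77 ± 0.12 on the log2 scale (adjusted p = 8.35e-05), and Cbr1, carbonyl reductase, by 0.58 ± 0.12 (adjusted p = 0.00172).

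Other thiol and methionine sulfoxide proteins had 3 higher and 1 lower of 15 tested, with a median of 0.027. Glrx3, a glutaredoxin of the cytosol that carries iron-sulfur clusters, rose by 0.33 ± 0.086 on the log2 scale (adjusted p = 0.00806), and Chac2, which breaks down glutathione, fell by 0.98 ± 0.26 (adjusted p = 0.00857). Oplah, which returns oxoproline to glutamate, rose by 0.36 ± 0.12 (adjusted p = 0.0381). The call of Glrx3 was lost without ctrl mouse 2 (adjusted p = 0.0511), that of Chac2 without ctrl mouse 14 (0.0611), and that of Oplah without any single mouse other than ctrl mouse 2 (0.0523 to 0.239). Selenop was the only call among 17 tested genes for selenoproteins and their production outside the members, a list without Dio2, Msrb1 and Selenoh.

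Of 12 tested genes for metal or lipid peroxide defence, Slc3a2 rose (log2 fold change 1.42 ± 0.12, adjusted p = 2.18e-08). It had 94.7, 88.7 and 104 CPM in cold mice and 38.8, 34.2 and 34.4 CPM in ctrl mice. Its protein pairs with amino acid transporters, among them the cystine transporter Slc7a11. Slc7a11 had 10 reads over the cold mice and 9 over the ctrl mice and was not tested. Ccs, the copper chaperone of Sod1, had 35.8, 37.6 and 39.0 CPM in cold mice and 51.5, 44.9 and 51.2 CPM in ctrl mice (-0.40 ± 0.13, adjusted p = 0.0399). With the level of muscle genes in the fit, the calls of Me1 (adjusted p = 0.0972), Mthfd1 (0.0643), Oplah (0.0831), Glrx3 (0.118) and Ccs (0.122) were lost. With DESeq2 those of Cbr1 (adjusted p = 0.0602), Mthfd1 (0.227), Chac2 (0.186), Oplah (0.221), Selenop (0.0733) and Ccs (0.413) were lost, and Me1 lost its call without the low count filter (0.052). The call of Ccs held without ctrl mouse 9 and was lost without any other single mouse (adjusted p = 0.0628 to 0.124).

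Levels of other cell types differed between the groups for some marker lists, as summed CPM with an exact two-sided permutation test whose smallest p is 0.1. All 14 skeletal muscle markers were detected and summed to 335, 1416 and 3602 CPM in cold mice and 182, 473 and 694 CPM in ctrl mice (exact p = 0.3), highest in cold mouse 15. The macrophage sum was 107 to 140 CPM in cold mice and 74.0 to 104 CPM in ctrl mice. The endothelial sum was 365 to 373 CPM in cold mice and 313 to 317 CPM in ctrl mice. Of 9 tested endothelial markers, Kdr and Esam rose (log2 fold changes 0.63 and 0.58) and Tek fell (-0.66, adjusted p = 0.0484). The sum of 9 fibroblast markers was 262 to 320 CPM in cold mice and 292 to 353 CPM in ctrl mice. Of its 8 tested markers Col1a1, Col1a2 and Col3a1 fell (log2 fold changes -0.71, -0.55 and -0.72), while Dcn, not called, averaged 128 CPM in cold mice and 100.5 CPM in ctrl mice. Pericyte and smooth muscle markers summed to 180 to 196 CPM in cold mice and 225 to 252 CPM in ctrl mice. Of 6 tested, only Rgs5 was called, lower, averaging 77.3 CPM in cold mice and 128 CPM in ctrl mice. The others ran from -0.47 for Cspg4 to 0.46 for Acta2 in log2 fold change. White adipocyte markers, with Hoxc9 at 0, summed to 125 to 151 CPM in cold mice and 66.0 to 105 CPM in ctrl mice. Of the white adipocyte list Retn and Nnat rose. Retn averaged 105 CPM in cold mice and 59.6 CPM in ctrl mice. Lep averaged 4.73 CPM in cold mice and 11.1 CPM in ctrl mice and was not called. Brown adipocyte markers summed to 41371 to 43897 CPM in cold mice and 31884 to 35348 CPM in ctrl mice, most of it from Ucp1 and Fabp4. Of 11 tested brown adipocyte markers 5 rose and 2, Cox8b and Adipoq, fell. Schwann cell markers summed to 113 to 137 CPM in cold mice and 128 to 164 CPM in ctrl mice, and lymphocyte markers to 0.50 to 2.33 CPM in cold mice and 2.55 to 7.44 CPM in ctrl mice. The sums of macrophage, lymphocyte, endothelial, pericyte, brown adipocyte and white adipocyte markers did not overlap (exact p = 0.1 each). Apart from the muscle level, which was tried in the fit, the part of these cell types in the results was not tested.

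Calls were compared over 18 other ways of processing the gene counts. Prdx6, Srxn1, Txn2, Gpx1, Gpx3, Gpx4 and Txn1 were called in the same direction under each of the 18, with log2 fold changes of 0.83 to 1.04 for Prdx6, 0.94 to 1.23 for Srxn1, 0.58 to 0.63 for Txn2, -0.80 to -0.54 for Gpx1, -0.67 to -0.45 for Gpx3, -0.84 to -0.66 for Gpx4 and -0.56 to -0.46 for Txn1. The other 6 called members lost the call under at least 1 of them, and 4 members that were not called, Sod2, Gpx8, Prdx1 and Gclc, were called under at least 1.

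**Figure D5:**
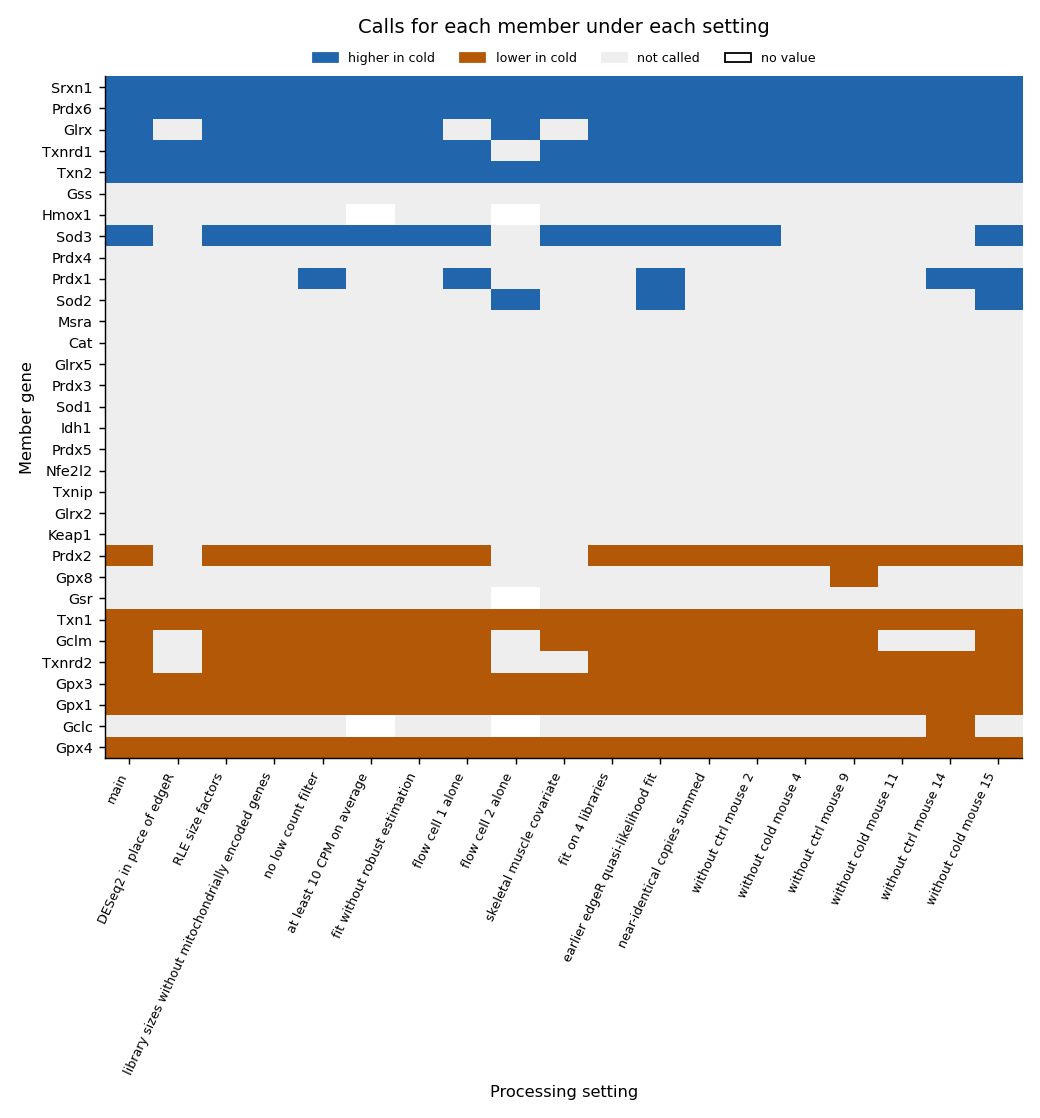
Call of each tested member (rows, ordered by log2 fold change) under the reported fit and 18 alternatives (columns): blue for higher in cold, brown for lower, grey for not called, white for no value. Prdx6, Srxn1 and Txn2 are blue and Gpx4, Gpx1, Gpx3 and Txn1 brown in every column, while Sod3, Gclm, Prdx2, Txnrd2, Glrx and Txnrd1 have gaps.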

How the data were processed

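The authors deposited read counts per transcript, as whole numbers without normalization. The submitters' processing notes name minimap2 and GRCm38; which minimap2 version and which annotation they used, and how they treated strand and multi-mapping reads, is not given in the sources used here. Transcript identifiers were matched to GENCODE M21 (59371 of 59543; the others held 0.0836% of reads and were left out). Both flow cells of a mouse (2 runs of 1 library) and all transcripts of a gene were added up. All 6 libraries entered edgeR 4.0.16 (R 4.3.3, limma 3.58.1): filterByExpr, TMM, the quasi-likelihood test with robust estimation, no covariate, and Benjamini-Hochberg adjustment over all tested features, called at 0.05. Adjusted p-values are from it wherever no other tool is given, with SE on the log2 scale. Transcript shares were tested with diffSpliceDGE. The procedure was checked on simulated counts.

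Libraries of the same group differed by 1.70 to 3.47 in chi-square per degree of freedom and libraries of different groups by 10.3 to 17.0, so each library was counted as 1 mouse. They held 15661 to 16418 genes with a read, and mitochondrially encoded genes took 27.6 to 32.5% of reads. The members and lists were chosen with earlier results of these data known. Values per mouse are given for called members and, per role, for the member with the highest mean CPM and the one with the largest change; from each related list up to 4 called genes are named by size of change. Near-identical copies were sought with minimap2 2.31 at a minimum of 200 bases and 95% identity. Alternatives used DESeq2 1.42.0, other scalings and filters, single flow cells, the mean level of 10 muscle genes as a covariate, a fit on 4 libraries without cold mouse 15 and ctrl mouse 2, and each mouse left out; an earlier edgeR fit and summed near-identical copies were added after seeing the data. Python 3.11.15 with pandas 2.3.3, numpy 2.4.6, scipy 1.17.1 and matplotlib 3.10.9 made tables, exact tests and figures. A few results for genes outside the members are not reported here.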

Additional observations from a re-analysis of the deposited data

How the results depend on the processing

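No paired analysis was possible because the mouse numbers differ between the groups. Of 571 values of members under the 18 alternatives, 529 kept direction and call, 20 lost the call, 10 gained one and 12 turned in sign. The 12 belong to members that were not called: Sod1 (-0.0060 with at least 10 CPM, -0.039 on flow cell 2, -0.0032 without ctrl mouse 2, -0.018 without cold mouse 4, -0.024 without cold mouse 11, -0.019 without ctrl mouse 14; its highest value with a mouse left out was 0.065), Txnip (0.044 with the muscle covariate, 0.075 on 4 libraries), Prdx3 (-0.021) and Keap1 (0.17) on flow cell 2, Hmox1 (-0.062) on flow cell 1, and Idh1 (0.0092 without cold mouse 15, the highest when each mouse is left out, and -0.13 without cold mouse 4, the lowest). DESeq2 called 4 members lower, as did flow cell 2 alone, where fewer reads were counted. Over all genes DESeq2 called 467 higher and 353 lower, flow cell 2 429 and 408, where the reported fit called 847 and 848; 527 were lower with the muscle covariate and 507 on 4 libraries. Of the related lists 4 genes were higher on 4 libraries and 9 lower with DESeq2. Member transcripts higher numbered 4 with DESeq2 and 5 on flow cell 2, and those lower 5 with DESeq2. The stricter response element was in 5.26% of member windows and 6.31% of all windows, and Srxn1, Gclm, Nfe2l2 and Sod1 did not have it. Leaving out each mouse gave 5 to 8 members higher and 6 to 8 lower, 669 to 737 genes higher and 644 to 684 lower, 5 to 7 related genes higher and 11 to 17 lower, 7 to 10 member transcripts higher and 5 to 10 lower, and 0 for shares. The lowest counts of transcripts came without cold mouse 4, ctrl mouse 9 or ctrl mouse 14 (7 higher each) and without cold mouse 11 (5 lower). On flow cell 2 alone Sod3 (0.14, adjusted p = 0.536), Prdx2 (-0.20, 0.326), Gclm (-0.41, 0.226), Txnrd2 (-0.57, 0.0508) and Txnrd1 (0.50, 0.0998) were not called, and on flow cell 1 alone Glrx was not (0.67, 0.0516). With DESeq2 Sod3 (adjusted p = 0.159), Prdx2 (0.0774), Gclm (0.225), Txnrd2 (0.076) and Glrx (0.0549) were not called. Single flow cells hold fewer reads, but the cause of these changes was not tested. Depth limits Nqo1, Gpx7, Hmox1 and Gclc, each with at most 73 reads in a group.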

Other observations

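The chains of ferritin, which stores iron away from oxidant chemistry, differed in direction. Fth1, the heavy chain, named after its values were seen, had 2023, 1947 and 1820 CPM in cold mice and 2635, 2652 and 2610 CPM in ctrl mice (log2 fold change -0.45 ± 0.063, adjusted p = 2.47e-05), beside the higher light chain Ftl1. Idh2, the mitochondrial counterpart of Idh1, also named after its values were seen, had 97.6, 95.7 and 115 CPM in cold mice and 133, 139 and 138 CPM in ctrl mice (-0.42 ± 0.099, adjusted p = 0.0041). The difference between Idh1 and Idh2 was not tested.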
